A study of Mus musculus with 37 samples.

Results

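The spleens of mice that had been through 10 social defeats were compared with those of undefeated controls by RNA sequencing. The comparison takes the 6 spleen libraries labelled with 10 stress episodes and no rest (D4, D5, D6, D7, D9 and D10) and the 4 labelled as control (C1 to C4), which are 10 of the 37 libraries of the study, and was made over 13945 genes. All libraries come from wild-type mice of the strain C57BL/6N. In social defeat a mouse is attacked and subdued by a dominant mouse; here it took place once a day, and the control mice were never defeated. For the later comparisons 4 spleen libraries from mice left undisturbed for 1 week after the last of 10 defeats (D1, D2, D3 and D8), 2 spleen libraries after 4 defeats (D13 and D14), 3 control and 5 10-defeat libraries of flushed femur marrow were used. Whether each library is a separate mouse, whether the spleens were perfused, and the age and sex of the mice are not given in the labels, so that p-values measure the spread between these libraries.

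The spleen joins a blood filter to a lymphoid organ. Macrophages of the red pulp take up aged red cells and recycle their iron, while the white pulp holds follicles of B cells and sheaths of T cells held together by stromal cells. In mice the red pulp also makes blood cells throughout life, and stress or blood loss can enlarge this output, first of red cells and also of granulocytes. Erythropoietin and glucocorticoids act on early red cell precursors in this setting.

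Markers of the labelled organ were present in all 10 libraries: the lowest value of Cd79a, of B cells, was 44.1 (D6), that of Cd3e, of T cells, 2.32 (D6), and that of Spic, the transcription factor of red pulp macrophages, 23.2 (D5). The deposited values are abundances that the authors scaled for each library, and no 2 columns were identical. Column totals ran from 709300 to 878900 in controls and from 682200 to 2376000 after 10 defeats. Depth is not stated; the steps between low values gave rough estimates of 6.43 to 34.9 M reads in controls and 9.24 to 27.4 M after 10 defeats. Genes of the exocrine pancreas, which adjoins the spleen, were high in control C2: the acinar marker list (10 genes tested) lay 2.06 above the control mean there on the log2 scale and between -0.88 and -0.57 after 10 defeats.

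Single libraries stood apart within the 10-defeat group, and they are described first because most results touch on them. Haemoglobin genes made up 11.99, 10.6, 23.1 and 12.5% of the column total in controls C1 to C4. After 10 defeats the share was 11.5% in D4 and 24.5% in D5, but 52.1, 51.9, 45.4 and 47.7% in D6, D7, D9 and D10. D4 and D5 thus lay within or just above the control range, and the other 4 libraries far above it. Transcripts of the mitochondrial genome took 8.58, 7.74, 5.03 and 6.94% in controls, 4.40% and 3.14% in D4 and D5, and 0.759, 1.26, 0.257 and 1.15% in the same 4 libraries. These shares depend on each other, since each is part of the same total. Of the total without haemoglobin genes, mitochondrial transcripts took 6.55% to 9.75% in controls, 4.97% in D4 and 4.16% in D5. In the same 4 libraries they took 0.472% to 2.62% of it.

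The same 4 libraries carried a trend with gene length. For each library the log2(value + 1) of a gene minus the mean of the controls was set against the log2 of its median transcript length, and the slope gives the change for each doubling of length (for a control, the mean of the other controls was used). The slopes were -0.00134, -0.00920, -0.0286 and 0.0391 in C1 to C4, -0.0117 in D4 and -0.0377 in D5. They were -0.189, -0.172, -0.177 and -0.171 in D6, D7, D9 and D10, so that long transcripts had lower values there than short ones. The mean slope after 10 defeats differed from that of controls by -0.126 (exact permutation test, two-sided, p = 0.0190, where the smallest p that 6 against 4 libraries can give is 0.00476). Of the rested libraries D1 and D2 had slopes of -0.105 and -0.186, while D3 and D8, with haemoglobin shares of 39.8% and 33.8%, had slopes of -0.00127 and -0.0196. A haemoglobin share above that of every control therefore occurred with and without a steep slope across the spleen libraries. Without a steep slope it reached at most 39.8%, below the 45.4% to 52.1% of D6, D7, D9 and D10. D1 and D2 had 27.8% and 58.8%. Within the 10-defeat group the highest shares and the steep slopes fell on the same 4 libraries. Results are given for all 6 libraries. For the lists, and for each gene that lost its call with D4 and D5 alone against the controls, values of that fit are added. A gene called with 6 libraries and given without such a value was also called with D4 and D5. The exception is Epx, given below for the rested libraries, since no gene of its eosinophil list was called with D4 and D5. The limit of -0.1 that divides D4 and D5 from D6, D7, D9 and D10 was set after the slopes had been seen.

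**Figure D1:**
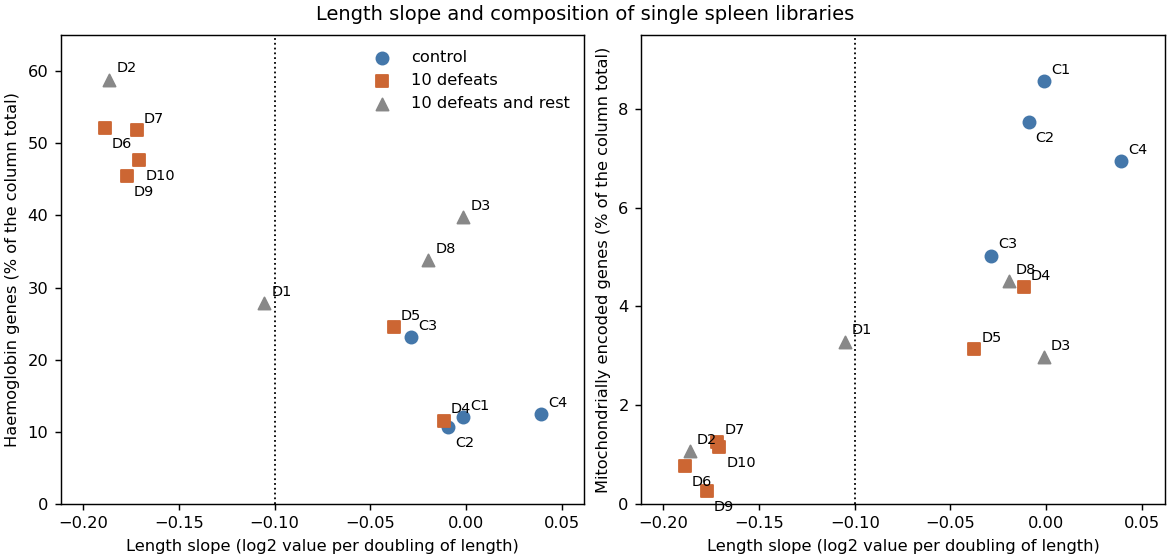
Length slope (x axis, log2 value for each doubling of transcript length) against the share of haemoglobin genes (left) and of mitochondrially encoded genes (right) in the column total, in %, for the spleen libraries of the control, 10-defeat and rested groups; each symbol is 1 library and the dotted line marks -0.1. Libraries D6, D7, D9 and D10 lie left of the line with haemoglobin shares of 45.4% to 52.1% and mitochondrial shares of at most 1.26%, and D4 and D5 lie among or near the controls.

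Across the spleen transcriptome, 2348 of 13945 genes had higher values after 10 defeats (16.8%) and 5848 had lower values (41.9%) at an adjusted p under 0.05 (limma, Benjamini and Hochberg). Every 10-defeat library lay above all controls in 1446 genes (10.4%) and below all controls in 3597 (25.8%). The median difference of all genes was -0.36 on the log2 scale. Median-ratio rescaling of the columns moved it to -0.01 and gave 3900 genes higher (28.0%) and 3517 lower (25.2%); quantile normalization gave 3275 and 3764, and equal column totals 816 (5.85%) and 7103 (50.9%), with a median of -0.89. The balance of higher and lower genes thus differed with the scaling, and each gene list below carries its counts under median-ratio rescaling as well. In bulk tissue fewer cells of a type and less RNA per cell cannot be told apart.

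The length trend showed in the calls. Of 2783 genes with a transcript length of at most 698 bp 29.5% were lower, and of 2780 genes with one of at least 2580 bp 62.01%, with median differences of -0.22 and -0.65. After a smooth length trend was removed from each library, 2241 genes were higher and 5724 lower (41.2%), among them 2005 and 5246 of the original calls. With D4 and D5 alone against the controls, 578 genes were higher (4.14%) and 474 lower (3.4%), of which 539 and 452 had been called in the same direction with all 6 libraries. A fit with 2 libraries has less power than one with 6, and the medians of these short and long genes were -0.18 and -0.33 in it.

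**Figure D2:**
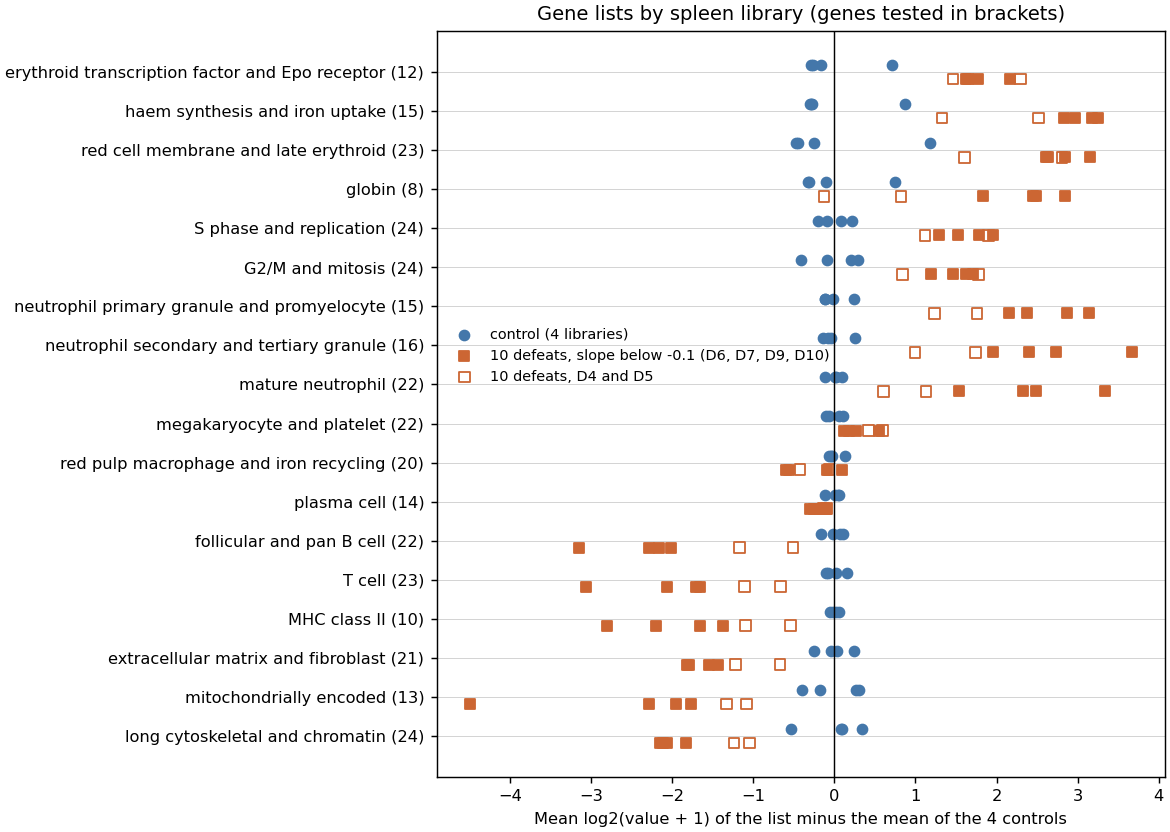
Mean log2(value + 1) of each gene list in each library minus the mean of the 4 controls (x axis), for 18 lists (y axis, genes tested in brackets); circles are controls, filled squares the 10-defeat libraries with a slope below -0.1 and open squares D4 and D5. The red cell, cell cycle and neutrophil lists lie to the right in the 10-defeat libraries, except D4 in the globin list, and the lymphocyte, matrix, mitochondrial and cytoskeletal lists lie to the left.

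**Figure D3:**
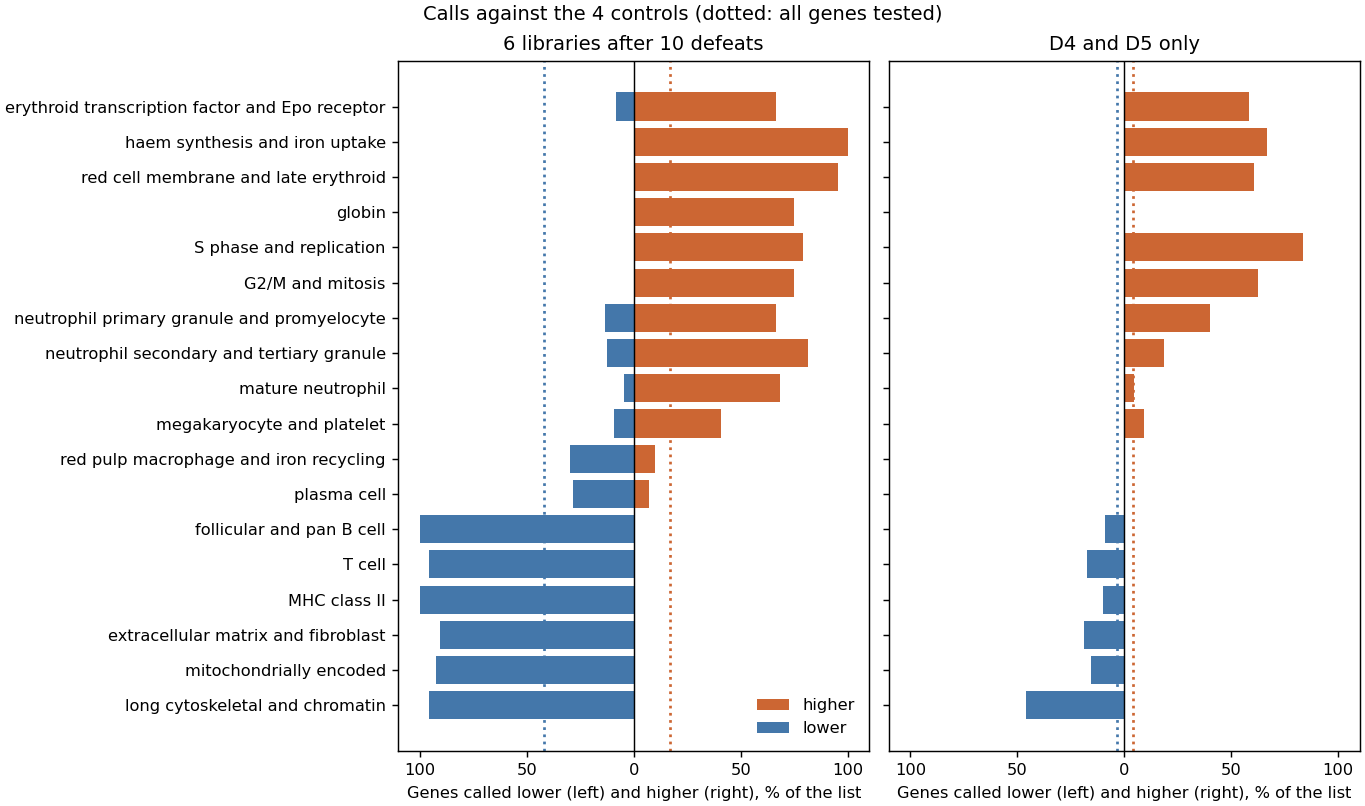
Share of the genes tested in each list that were called higher (right of 0) or lower (left of 0) at an adjusted p under 0.05, in %, with all 6 libraries of the 10-defeat group and with D4 and D5 alone, beside all genes tested. With D4 and D5 alone, 20 of 24 S phase genes are called higher, against no globin gene, and 2 of 22 B cell genes are called lower.

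Genes of red cell formation rose. Of 15 genes of haem synthesis and iron uptake, all 15 rose, with a median log2 difference of 2.64; of 23 genes of the red cell membrane and late erythroid cells, 22 rose (median 2.81); and of 12 erythroid transcription factors and the erythropoietin receptor, 8 rose and 1 fell (median 2.38). Median-ratio rescaling gave 15, 22 and 8 higher and none lower. With D4 and D5 alone, 10, 14 and 7 genes of the 3 lists were higher and none lower, with medians of 2.24, 2.50 and 2.36. The background was 16.8% of all genes higher with 6 libraries and 4.14% with D4 and D5.

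The promoters of Gata1, Epor and Cdc6, 3 genes that rose, are shown with the motifs that known regulators of red cell and replication genes bind. GATA1 recognises AGATAA and KLF1 a CACCC box, searched here as CCNCNCCC, in erythroid genes, and E2F factors recognise TTTCCCGC or TTTGGCGC at genes of DNA replication; both strands of each window were searched for all 4 motifs, and the matches are in capitals. The windows are the 250 bases before the RefSeq start site, 5′ to 3′ on the gene's strand, in the RefSeq build GRCm38.p6: Gata1 at chrX:7967911-7968160 (minus strand), Epor at chr9:21963577-21963826 (minus strand) and Cdc6 at chr11:98907901-98908150 (plus strand).
Gata1: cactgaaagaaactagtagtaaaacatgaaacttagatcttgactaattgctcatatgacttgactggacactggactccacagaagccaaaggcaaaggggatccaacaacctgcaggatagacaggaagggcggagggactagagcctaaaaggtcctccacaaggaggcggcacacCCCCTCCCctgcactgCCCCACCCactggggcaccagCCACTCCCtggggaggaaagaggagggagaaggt
Epor: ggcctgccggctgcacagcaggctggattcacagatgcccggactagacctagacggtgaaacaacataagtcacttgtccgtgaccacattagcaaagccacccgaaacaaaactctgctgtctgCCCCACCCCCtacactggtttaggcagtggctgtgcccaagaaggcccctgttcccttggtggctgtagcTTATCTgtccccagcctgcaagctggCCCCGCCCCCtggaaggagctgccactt
Cdc6: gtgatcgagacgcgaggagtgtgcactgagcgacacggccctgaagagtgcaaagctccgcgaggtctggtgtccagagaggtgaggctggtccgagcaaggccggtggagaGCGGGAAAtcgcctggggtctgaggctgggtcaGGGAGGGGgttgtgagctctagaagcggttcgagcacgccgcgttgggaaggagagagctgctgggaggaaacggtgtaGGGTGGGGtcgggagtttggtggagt
The Epor window holds AGATAA on the opposite strand, 54 to 49 bases before the start, and 4 matches of CCNCNCCC in 2 overlapping pairs. The Gata1 window holds 3 matches of CCNCNCCC and none of AGATAA. The Cdc6 window holds TTTCCCGC on the opposite strand, 138 to 131 bases before the start, and 2 matches of CCNCNCCC on that strand. Of 45 genes of the 3 erythroid lists that rose, 29 were found in the RefSeq promoter table with 43 promoters of 300 bases (250 before and 50 after the start). AGATAA occurred in 10 of the 43 (23.3%), against 11.2% of all 32851 promoters and 6.77% of the promoters of genes tested. CCNCNCCC occurred in 65.1%, against 49.5% and 66.1%. A match is a run of letters in this window and no measure of binding.

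Gata1 (chromosome X, 7959260 to 7978071, GRCm38), the transcription factor that directs red cell and megakaryocyte development, had values of 4.33, 5.38, 16.2 and 6.86 in controls C1 to C4, and after 10 defeats the lowest value was 42.1 (D4), the median 73.4 and the highest 99.5 (D7). The groups did not overlap, and C3 was the highest control. The log2 difference was 3.11 ± 0.30 (adjusted p = 1.96e-05), and with D4 and D5 alone 2.89 (adjusted p = 0.00418). Epor (chromosome 9, 21958897 to 21963506), the erythropoietin receptor, stood at 4.196, 4.63, 17.9 and 5.82 in the 4 controls and ran from 30.7 in D4 over a median of 70.2 to 89.6 in D7 after 10 defeats. Its lowest 10-defeat library still lay above every control, and the difference was 3.05 ± 0.34 (adjusted p = 3.91e-05). Tal1, a partner of Gata1, differed by 3.88 (adjusted p = 3.25e-05) and Klf1, which drives the adult globin programme, by 2.81 (adjusted p = 0.000344). In Klf1 the steep libraries were not the highest, since D5 held the top value of 159.6 and D9 the lowest of 33.7. Nfe2, which acts late in erythroid and megakaryocytic cells, rose by 3.75 (adjusted p = 8.44e-05).

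In the haem pathway Alad, an early enzyme, was at 25.8, 22.1, 64.8 and 27.0 in the 4 controls and ran from 105 in D4 over a median of 261 to 410.4 in D7 after 10 defeats. The groups did not overlap, and D4 lay nearest the controls. The difference was 2.97 ± 0.37 (adjusted p = 6.84e-05), and with D4 and D5 alone 2.30 (adjusted p = 0.0135). Cpox, a late enzyme of the same pathway, differed by 2.64 (adjusted p = 4.8e-05). Tfr2, the second transferrin receptor, which also binds the erythropoietin receptor, had a low but tight rise, from values of 1.71 to 3.07 in controls to 10.9 to 17.9 after 10 defeats (difference 2.19 (adjusted p = 1.29e-05)). Tfrc, the transferrin receptor that brings in iron, had values of 25.4, 24.8, 70.3 and 18.6 in controls C1 to C4, and after 10 defeats the lowest value was 67.9 (D4), the median 417 and the highest 577 (D6). D4 lay below control C3 there, and the difference of 3.19 (adjusted p = 0.000641) was 1.77 (adjusted p = 0.0977) with D4 and D5 alone.

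Genes of later red cells rose as well. Aqp1, the water channel of the red cell membrane, had values of 31.8, 31.4, 98.0 and 33.2 in controls C1 to C4, and after 10 defeats the lowest value was 194 (D4), the median 500.2 and the highest 936 (D6). The groups were separate, with C3 the highest control. The difference was 3.54 ± 0.41 (adjusted p = 4.92e-05), or 2.77 (adjusted p = 0.00911) with D4 and D5 alone. Rhag, of the Rh complex, Hemgn, a nuclear protein of erythroid precursors, and Car2, carbonic anhydrase, differed by 3.65 (adjusted p = 5.45e-05), 4.16 (adjusted p = 6.84e-05) and 3.65 (adjusted p = 7.07e-05), with no overlap in any of the 3. Blvrb, a reductase abundant in red cells, differed by 2.90 (adjusted p = 0.000347) with all libraries and by 1.68 (adjusted p = 0.0513) with D4 and D5.

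The globin genes themselves, which make the protein of the finished red cell, were the exception. Of 8 tested, 6 rose with all 6 libraries (median 1.40), 7 with median-ratio rescaling, 3 with equal column totals, and none with D4 and D5 alone (median 0.15). Hbb-bs, a beta globin whose reads are shared with its near copy, stood at 39830, 47400, 85300 and 33480 in the 4 controls and ran from 31550 in D4 over a median of 505900 to 878800 in D6 after 10 defeats. D4 lay below every control, D5 within their range and the other 4 libraries above it, and the difference of 2.43 (adjusted p = 0.0301) was 0.05 (adjusted p = 0.977) with D4 and D5. Hbq1b, a theta globin, had a difference of 4.01 (adjusted p = 0.000946), or 1.84 (adjusted p = 0.135) with D4 and D5. In D4 the genes of red cell precursors were thus high while globin was not: its list mean lay 1.46 above controls for the transcription factors and -0.13 from them for globin.

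**Figure D4:**
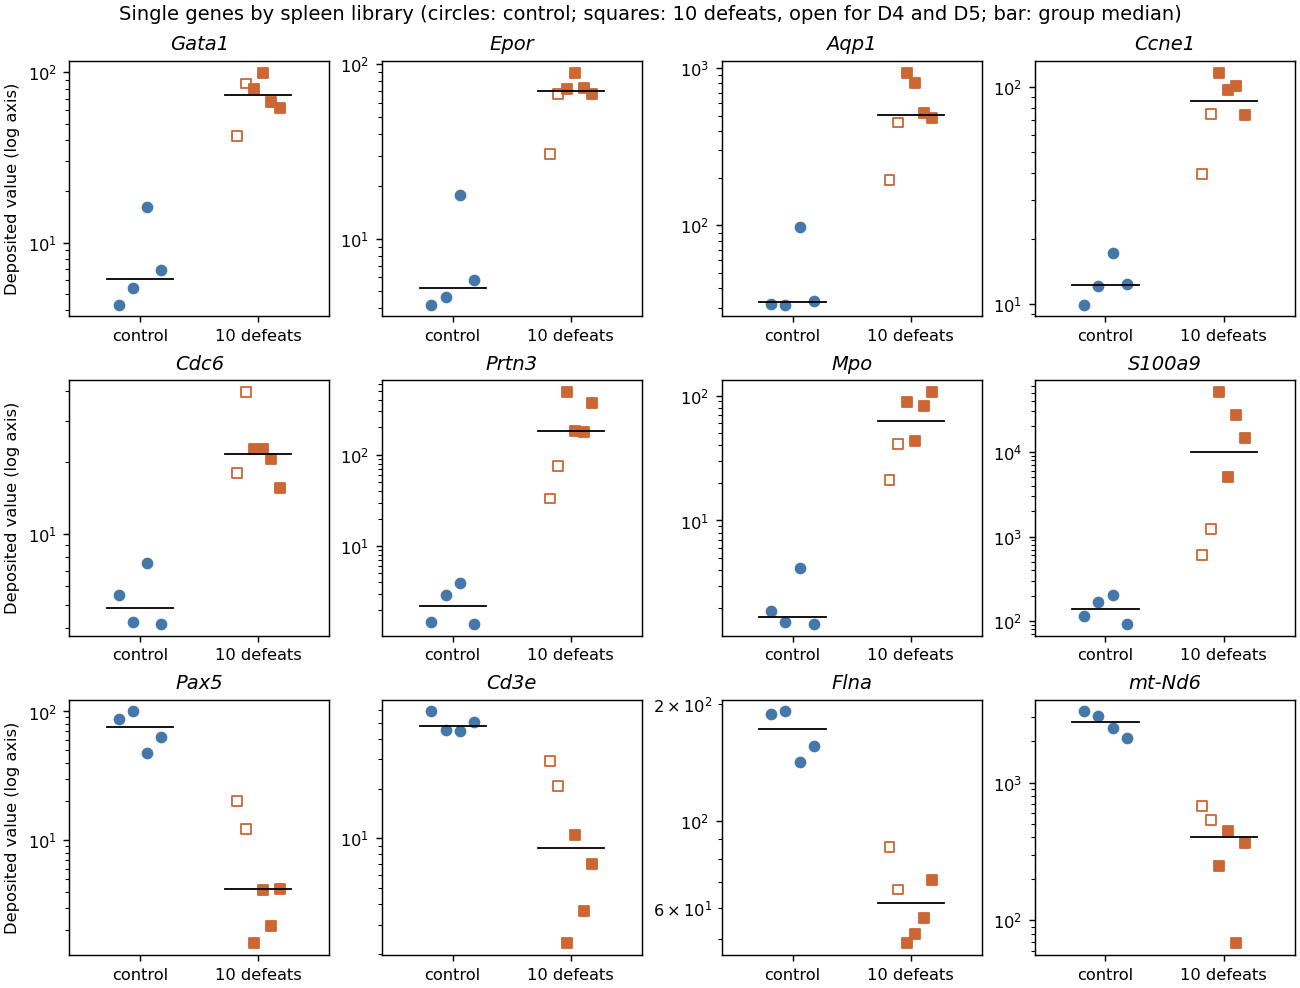
Deposited values (y axes, log scale, arbitrary units of the authors) of 12 genes in the 4 control (circles) and 6 10-defeat spleen libraries (squares, open for D4 and D5); bars are group medians. The groups do not overlap in any of the 12 panels, and D4 or D5 is the 10-defeat library nearest the controls in all panels but Cdc6.

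Cell cycle genes rose with the red cell genes. Of 24 genes of S phase and replication, 19 rose and none fell (median 1.52), and of 24 genes of G2 and mitosis 18 rose and none fell (median 1.51). Median-ratio rescaling gave 21 and 21, equal column totals 11 and 13, and D4 and D5 alone 20 and 15, with none lower in any of these. 

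Ccne1 (chromosome 7, 38097984 to 38107534), cyclin E1, which opens S phase, had values of 9.95, 12.2, 17.1 and 12.3 in controls C1 to C4, and after 10 defeats the lowest value was 39.8 (D4), the median 85.7 and the highest 116 (D6). The lowest 10-defeat library lay above the highest control by more than the whole control range, and the difference was 2.56 ± 0.28 (adjusted p = 3.46e-05), or 2.03 (adjusted p = 0.00634) with D4 and D5. Cdc6, which loads the replicative helicase and whose promoter is shown above, stood at 5.50, 4.25, 7.53 and 4.17 in the 4 controls and ran from 15.7 in D10 over a median of 21.7 to 39.6 in D5 after 10 defeats. Here a library without a steep slope was the highest; the difference was 1.90 ± 0.24 (adjusted p = 7.14e-05). Rrm2, the small subunit of ribonucleotide reductase, and Gins1, of the replication fork, differed by 2.46 (adjusted p = 7.14e-05) and 2.13 (adjusted p = 7.05e-05). The mitotic kinase Aurka and the cyclins Ccna2 and Ccnb1 differed by 2.41 (adjusted p = 3.25e-05), 2.21 (adjusted p = 3.91e-05) and 2.43 (adjusted p = 5.37e-05).

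Not every proliferation gene was called. Mki67, the usual marker of dividing cells, had values of 24.9, 16.04, 19.5 and 18.02 in controls C1 to C4, and after 10 defeats the lowest value was 16.6 (D10), the median 22.2 and the highest 45.4 (D5). The groups overlapped, with a difference of 0.29 (adjusted p = 0.468); after the length trend was removed it was 0.77 (adjusted p = 0.0414), and with D4 and D5 alone 0.60 (adjusted p = 0.429). In the S phase list the 5 genes without a call were Chaf1a, Mcm3, Mcm4, Mcm6 and Pola1, with a median transcript length of 1749 bp against 811 bp for the 19 that rose, whereas in the mitosis list the 6 without a call had a median of 712 bp against 1649 bp for the 18 that rose. Transcript length is the median over the annotated transcripts of a gene. In the genes without a call it ran from 658 to 5535 bp in the S phase list. In the mitosis list it ran from 582 to 5318 bp, and whether length bears on these calls was not tested. Among E2F factors and other cell cycle regulators 6 of 14 rose and 2 fell; median-ratio rescaling gave 8 and 2, equal column totals 0 and 2, and D4 and D5 4 and 0. E2f1, an activator of replication genes, differed by 1.21 (adjusted p = 0.000251) and E2f8, a repressor of the same genes, by 1.51 (adjusted p = 0.000405), and neither was called with equal column totals. TTTCCCGC or TTTGGCGC was found in 4 of 17 promoters (23.5%) of 15 S phase genes that rose, against 1.56% of all promoters and 2.76% of those of genes tested.

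Most granule genes of developing neutrophils rose, those of primary granules from control values of a few units. Of 15 genes of primary granules and promyelocytes 10 rose and 2 fell (median 2.19), of 16 genes of secondary and tertiary granules 13 rose and 2 fell (median 2.07), and of 22 genes of mature neutrophils 15 rose and 1 fell (median 1.64). Median-ratio rescaling gave 10, 14 and 17 higher and 0, 2 and 1 lower. With D4 and D5 alone 6, 3 and 1 were higher and none lower, with medians of 1.15, 1.21 and 0.73. Of all genes 16.8% were higher and 41.9% lower with 6 libraries, and 28.0% and 25.2% with median-ratio rescaling. With D4 and D5 the shares were 4.14% and 3.4%, and the mature neutrophil count of 1 of 22 was near the first of these.

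Prtn3 (chromosome 10, 79874476 to 79883174), proteinase 3 of primary granules, had values of 1.46, 2.88, 3.94 and 1.40 in controls C1 to C4, and after 10 defeats the lowest value was 33.2 (D4), the median 182 and the highest 489 (D6). Controls held only a few units, and D4 alone was far above them; the difference was 5.60 ± 0.61 (adjusted p = 3.69e-05), or 3.97 (adjusted p = 0.00318) with D4 and D5. Elane, neutrophil elastase, had values of 1.30, 1.43, 2.72 and 1.37 in the 4 controls and ran from 21.5 in D4 over a median of 113 to 273 in D6 after 10 defeats. Its difference was 5.24 ± 0.54 (adjusted p = 2.46e-05), or 3.76 (adjusted p = 0.00228) with D4 and D5. Mpo, myeloperoxidase, and Ctsg, cathepsin G, differed by 4.20 (adjusted p = 2.46e-05) and 5.09 (adjusted p = 4.92e-05). Ms4a3, a gene of granulocyte and monocyte precursors, ran from 0.113 to 1.66 in controls and from 7.85 to 445 after 10 defeats, a difference of 5.56 (adjusted p = 0.000358). Control values near 1 are the least precise, and the pseudocount of 1 lowers the differences of such genes.

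Camp (chromosome 9, 109847379 to 109849617), cathelicidin of secondary granules, had values of 11.4, 8.09, 26.4 and 5.25 in controls C1 to C4, and after 10 defeats the lowest value was 49.7 (D4), the median 1190 and the highest 4129 (D6). The difference was 5.80 ± 1.08 (adjusted p = 0.000725). D4 and D5 lay above every control but well below the rest of their group, and with these alone the difference was 2.86 (adjusted p = 0.0895). Ngp, another secondary granule protein, and Lcn2, lipocalin 2, kept their calls with D4 and D5 at 3.49 (adjusted p = 0.0162) and 3.08 (adjusted p = 0.0144), whereas Ltf, lactoferrin, was 2.43 (adjusted p = 0.0616). S100a9, which with S100a8 forms the calprotectin of neutrophils, stood at 114, 168, 206 and 92.8 in the 4 controls and ran from 608 in D4 over a median of 9906 to 50820 in D6 after 10 defeats. The groups did not overlap, yet the 10-defeat libraries themselves differed widely, and the difference of 5.54 ± 1.08 (adjusted p = 0.000956) became 2.62 (adjusted p = 0.09) with D4 and D5. S100a8 behaved alike, at 5.10 (adjusted p = 0.00127) and 2.31 (adjusted p = 0.124). Ly6g, the surface marker of neutrophils, differed by 3.05 (adjusted p = 0.00082), or 1.68 (adjusted p = 0.076) with D4 and D5, and Retnlg, of mature neutrophils, by 3.53 (adjusted p = 0.000549), or 2.23 (adjusted p = 0.0454) with these. Il1b, the inflammatory cytokine, differed by 1.64 (adjusted p = 0.00451), or 0.91 (adjusted p = 0.18) with D4 and D5.

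Basophil, eosinophil and platelet genes rose in part. Among 11 basophil and mast cell genes 5 rose and 2 fell, among 9 eosinophil genes 4 and 1, and among 22 megakaryocyte and platelet genes 9 and 2. Of all genes 16.8% were higher and 41.9% lower. Median-ratio rescaling gave 5 and 1, 5 and 1, and 12 and 1, and D4 and D5 alone 2 and 0, 0 and 0, and 2 and 0. The shares of all genes were 28.0% higher and 25.2% lower with that rescaling, and 4.14% and 3.4% with D4 and D5. Equal column totals gave 2 higher and 3 lower for the platelet list, with a median of -0.10 in place of 0.53. With equal totals 5.85% of all genes were higher and 50.9% lower. Prss34, a basophil protease, was at 0.477, 0, 0.374 and 0.510 in the 4 controls and ran from 2.31 in D4 over a median of 7.86 to 12.5 in D10 after 10 defeats. The control values are at the level of single reads; the difference was 2.60 (adjusted p = 5.44e-05), or 1.93 (adjusted p = 0.00983) with D4 and D5. Mcpt8, a second basophil protease, differed by 3.07 (adjusted p = 0.000292), or 1.84 (adjusted p = 0.0494) with D4 and D5. Pf4, platelet factor 4, and Gp9, of the platelet receptor for von Willebrand factor, differed by 2.15 (adjusted p = 0.00177) and 1.49 (adjusted p = 0.000873), and by 1.27 (adjusted p = 0.176) and 1.13 (adjusted p = 0.0901) with D4 and D5. The eosinophil ribonucleases Ear1 and Ear6 differed by 1.88 (adjusted p = 0.00112) and 2.07 (adjusted p = 0.00232), and by 0.98 (adjusted p = 0.124) and 0.79 (adjusted p = 0.239) with D4 and D5; they are near copies of each other, so reads may be divided between them.

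Lymphocyte genes had lower values after 10 defeats. All 22 genes of the B cell list fell (median -1.98), as did 22 of 23 T cell genes (median -1.67), 9 of 16 natural killer and cytotoxic genes (median -0.76), 13 of 15 dendritic cell genes, all 10 MHC class II genes and 12 of 13 genes of MHC class I presentation. None of these rose, against a background of 41.9% of all genes lower. Median-ratio rescaling gave 19, 19, 4, 9, 9 and 7 lower in the same order, with 1 dendritic cell gene higher. With that rescaling 25.2% of all genes were lower, and the natural killer and cytotoxic count of 4 of 16 was near that share. D4 and D5 alone gave 2, 4, 4, 2, 1 and 2 lower, beside 3.4% of all genes. The medians stayed negative, at -0.75 for B cells and -0.89 for T cells, beside -0.22 for all genes.

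Pax5 (chromosome 4, 44524757 to 44710487), the factor that holds B cells to their identity, had values of 87.9, 100, 47.6 and 63.0 in controls C1 to C4, and after 10 defeats the lowest value was 1.58 (D6), the median 4.16 and the highest 20.2 (D4). The groups did not overlap, and the difference was -3.53 ± 0.55 (adjusted p = 0.00027), or -2.12 (adjusted p = 0.036) with D4 and D5. Cd79a, of the B cell receptor, stood at 692, 665, 744 and 731 in the 4 controls and ran from 44.1 in D6 over a median of 189.7 to 560.2 in D4 after 10 defeats. Controls were tight, D4 lay just under them, and the difference of -2.10 (adjusted p = 0.0061) was -0.69 (adjusted p = 0.304) with D4 and D5. Tnfrsf13c, the receptor for the survival factor BAFF, differed by -1.25 (adjusted p = 0.000703). Fcmr, the IgM Fc receptor, ran from 224 to 302 in controls and from 3.49 to 165 after 10 defeats, with a difference of -3.09 (adjusted p = 0.00533), or -0.99 (adjusted p = 0.343) with D4 and D5.

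Cd3e (chromosome 9, 44998740 to 45009627), a signalling chain of the T cell receptor, had values of 58.4, 45.4, 44.7 and 50.5 in controls C1 to C4, and after 10 defeats the lowest value was 2.32 (D6), the median 8.74 and the highest 29.5 (D4). D4 and D5 held the highest values of their group, below every control; the difference was -2.35 ± 0.52 (adjusted p = 0.002), or -0.97 (adjusted p = 0.154) with these alone. Cd3g, a sister chain, and Zap70, the kinase that it recruits, differed by -1.91 (adjusted p = 0.000691) and -1.48 (adjusted p = 0.00104), and with D4 and D5 by -1.15 (adjusted p = 0.0289) and -0.81 (adjusted p = 0.0369). Trac, the constant part of the alpha chain, differed by -2.87 (adjusted p = 0.00565), or -0.82 (adjusted p = 0.295) with D4 and D5. Klrb1c, the NK1.1 receptor of natural killer cells, differed by -0.87 (adjusted p = 0.00258), and by -0.45 (adjusted p = 0.0523) after median-ratio rescaling.

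Antigen presentation genes followed. H2-Ab1, a chain of the class II molecule, had values of 1936, 1792, 1839 and 1698 in controls C1 to C4, and after 10 defeats the lowest value was 249 (D6), the median 625 and the highest 1292 (D4). All 10-defeat libraries lay below the controls, with a difference of -1.61 (adjusted p = 0.0022), or -0.79 (adjusted p = 0.127) with D4 and D5. Itgax, the integrin CD11c of dendritic cells, was at 21.9, 21.5, 15.97 and 29.0 in the 4 controls and ran from 1.198 in D6 over a median of 2.52 to 9.30 in D4 after 10 defeats. Its difference was -2.48 (adjusted p = 0.00031), or -1.55 (adjusted p = 0.0453) with D4 and D5. Nlrc5, the activator of class I genes, differed by -1.98 (adjusted p = 0.000258), or -1.47 (adjusted p = 0.00356) with D4 and D5. Plasma cell genes were divided: 1 of 14 rose and 4 fell (median -0.33), and the direction turned with median-ratio rescaling (5 higher and 2 lower, median 0.09); none was called with D4 and D5.

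Most genes of red pulp macrophages, which clear red cells, were not called. Of 20 genes of these cells and of iron recycling 2 rose and 6 fell (median -0.43), beside 16.8% and 41.9% of all genes. Median-ratio rescaling gave 6 and 3 (median 0.03), beside 28.0% and 25.2%, and no gene was called with D4 and D5. The counts were thus near or below the shares of all genes. Spic, which specifies these macrophages, had values of 44.9, 53.5, 46.5 and 43.8 in controls C1 to C4, and after 10 defeats the lowest value was 23.2 (D5), the median 35.4 and the highest 61.9 (D10). The groups overlapped and the difference was -0.27 (adjusted p = 0.432). Hmox1, which breaks down haem, differed by -0.62 (adjusted p = 0.0796); it fell once D10, its highest 10-defeat library, was left out, and once the length trend was removed (-0.77 (adjusted p = 0.0388)). Vcam1, an adhesion molecule of these macrophages, differed by -0.97 (adjusted p = 0.00258), by -0.49 (adjusted p = 0.0509) after median-ratio rescaling and by -0.84 (adjusted p = 0.0833) with D4 and D5. Timd4, which binds dying cells on resident macrophages, differed by -1.18 (adjusted p = 0.0056), or -0.67 (adjusted p = 0.218) with D4 and D5. Marco, a scavenger receptor of marginal zone macrophages, ran from 6.75 in D6 to 75.6 in D4 after 10 defeats, beside 67.1 to 116 in controls. Its difference was -1.74 (adjusted p = 0.0596), and it was called lower without D4 and without D5.

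Genes of the splenic framework fell. Of 21 extracellular matrix and fibroblast genes 19 fell (median -1.50), of 10 smooth muscle genes all 10, of 16 endothelial genes 15 and of 16 genes of white pulp stroma 11, and none rose. Median-ratio rescaling gave 16, 8, 11 and 6 lower, with 1 endothelial and 1 stromal gene higher, and D4 and D5 alone 4, 3, 1 and 2 lower. Of all genes 41.9% were lower with 6 libraries, 25.2% with median-ratio rescaling and 3.4% with D4 and D5. The stromal count with median-ratio rescaling and the endothelial count with D4 and D5 were not far above these shares. Dcn, decorin of the matrix, had values of 33.4, 35.7, 34.8 and 46.3 in controls C1 to C4, and after 10 defeats the lowest value was 7.53 (D6), the median 14.2 and the highest 21.1 (D4). The groups were separate, and the difference was -1.42 ± 0.22 (adjusted p = 0.000252), or -1.02 (adjusted p = 0.0189) with D4 and D5. Col14a1, a fibre-associated collagen, Kdr, the VEGF receptor of endothelium, and Ccl19, the chemokine that draws T cells into the white pulp, differed by -1.97 (adjusted p = 0.000321), -1.71 (adjusted p = 0.0002) and -1.81 (adjusted p = 0.000893); with D4 and D5 the values were -1.24 (adjusted p = 0.0367), -1.12 (adjusted p = 0.0329) and -1.01 (adjusted p = 0.0362).

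Genes of the mitochondrial genome and nuclear genes of the same respiratory chain moved apart. Of 13 mitochondrially encoded genes 12 fell and none rose (median -2.26), while of 26 nuclear genes of oxidative phosphorylation 18 rose and 1 fell (median 0.92). Of all genes 41.9% were lower and 16.8% higher. Median-ratio rescaling gave 9 lower and 24 higher, equal column totals 12 and 8, and D4 and D5 alone 2 and 1. The shares of all genes were 25.2% and 28.0%, 50.9% and 5.85%, and 3.4% and 4.14% in the same order. With D4 and D5 the nuclear count was thus near the share of all genes. After removal of the length trend 12 mitochondrially encoded genes fell, while 14 nuclear genes rose and 1 fell. mt-Nd6, a subunit of complex I read from the light strand, had values of 3278, 3045, 2473 and 2087 in controls C1 to C4, and after 10 defeats the lowest value was 68.2 (D9), the median 405 and the highest 672 (D4). Every 10-defeat library, D4 and D5 included, lay far below the controls, with a difference of -3.08 ± 0.48 (adjusted p = 0.000277), or -2.16 (adjusted p = 0.00493) with D4 and D5. mt-Nd4, of the same complex, differed by -3.20 (adjusted p = 0.00118), or -1.83 (adjusted p = 0.0549) with D4 and D5. On the nuclear side Uqcr11, of complex III, differed by 1.64 (adjusted p = 0.00247) and Ndufv1, of complex I, by 0.90 (adjusted p = 0.000631), and with D4 and D5 by 0.78 (adjusted p = 0.236) and 0.71 (adjusted p = 0.0319).

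A list of 24 cytoskeletal and chromatin genes that make large proteins had 23 lower members (median -1.81), 22 after median-ratio rescaling and 11 with D4 and D5. By the median over all annotated transcripts its members named here were not long, at 1191 bp for Myh9, 1248 bp for Sptan1 and 832 bp for Flna. Removal of the length trend went by these medians, and the differences after it were -3.26 for Myh9 and -3.10 for Sptan1. It therefore cannot show how the values go with longer transcripts of these genes, which was not tested. Myh9, the heavy chain of nonmuscle myosin, had values of 102, 87.8, 63.7 and 119.5 in controls C1 to C4, and after 10 defeats the lowest value was 4.37 (D6), the median 4.75 and the highest 47.0 (D4). The 4 steep libraries lay close together, well below D4 and D5, and the difference of -3.11 (adjusted p = 0.00131) was -1.25 (adjusted p = 0.176) with D4 and D5. Sptan1, a spectrin, and Flna, filamin A, which ties actin to the membrane, differed by -2.97 (adjusted p = 0.000181) and -1.42 (adjusted p = 8.28e-05) with all libraries and by -1.80 (adjusted p = 0.0147) and -1.14 (adjusted p = 0.0104) with D4 and D5. Of the protein genes of the cytoplasmic ribosome, 6 of 31 rose and none fell, near the 16.8% of all genes that were higher. Median-ratio rescaling gave 18 higher, beside 28.0% of all genes, and equal column totals 5 lower, beside 50.9%. After removal of the length trend 2 rose and 1 fell, and with D4 and D5 none was called.

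The study set immune gene expression beside lipid mediators, which are oxidised fatty acids and related signals made and sensed by leukocytes. Among 13 leukotriene and lipoxygenase genes tested 4 rose and 2 fell (median 0.13), among 17 prostanoid genes 3 rose and 7 fell (median -0.49), among 20 genes for sphingosine phosphate and for formyl peptide and free fatty acid receptors 2 and 16 (median -1.04), and among 24 genes of phospholipase A2 and fatty acid remodelling 3 and 13 (median -0.67). With median-ratio rescaling the counts were 4 and 0, 4 and 2, 3 and 13, and 5 and 8. The prostanoid list turned towards higher there, as all genes did, and its share of higher genes lay below the 28.0% of all genes. The background was 16.8% of all genes higher and 41.9% lower, and 28.0% and 25.2% with median-ratio rescaling, and the shares of the prostanoid list with 6 libraries were near it. With D4 and D5 alone they were 1 and 0, 0 and 0, 1 and 2, and 3 and 1.

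Sphk1 (chromosome 11, 116530925 to 116536674), the kinase that makes sphingosine phosphate, stood out among these genes. Its values were 4.36, 4.09, 11.7 and 5.56 in the 4 controls and ran from 34.2 in D4 over a median of 73.2 to 99.5 in D7 after 10 defeats. The groups were far apart, D4 and D5 included, with a difference of 3.31 ± 0.32 (adjusted p = 1.96e-05), or 2.69 (adjusted p = 0.00418) with D4 and D5. Mgst3, a microsomal glutathione transferase grouped with the leukotriene enzymes, had values of 8.92, 8.76, 45.2 and 10.8 in controls C1 to C4, and after 10 defeats the lowest value was 52.5 (D4), the median 252 and the highest 536 (D6). Its groups were separate as well, with a difference of 3.91 (adjusted p = 0.000244), or 2.62 (adjusted p = 0.036) with D4 and D5. Both genes were high in control C3, as were red cell genes. Acsl1, which activates fatty acids, differed by 1.38 (adjusted p = 0.000358).

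The enzymes of leukotriene synthesis were closer to the threshold. Alox5, the 5-lipoxygenase that starts the pathway, stood at 0.998, 0.922, 0.895 and 1.49 in the 4 controls and ran from 1.49 in D4 over a median of 1.75 to 4.03 in D6 after 10 defeats. D4 nearly met control C4 at values near the detection level, and the difference was 0.65 (adjusted p = 0.0493), or 0.36 (adjusted p = 0.493) with D4 and D5. Its protein partner Alox5ap differed by 0.78 (adjusted p = 0.0451), or 0.12 (adjusted p = 0.84) with D4 and D5, and each of these calls was lost in 7 of the 10 fits that left out 1 library. Lta4h, which makes leukotriene B4, had values of 45.2, 39.5, 42.7 and 44.3 in controls C1 to C4, and after 10 defeats the lowest value was 32.5 (D7), the median 43.7 and the highest 49.5 (D10). These overlapped throughout, with a difference of -0.04 (adjusted p = 0.841). Ltc4s, which makes leukotriene C4, differed by -0.72 (adjusted p = 0.0418), by -0.30 (adjusted p = 0.365) after median-ratio rescaling and by -0.61 (adjusted p = 0.242) with D4 and D5. Ltb4r1, the leukotriene B4 receptor of granulocytes, differed by 1.54 (adjusted p = 0.00581), or 0.71 (adjusted p = 0.302) with D4 and D5. Alox12 and Alox15, lipoxygenases of platelets and of eosinophils and macrophages, differed by -0.23 (adjusted p = 0.508) and 0.13 (adjusted p = 0.526).

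Among prostanoid enzymes and lipid receptors, the genes named here had lower values. Ptgs1, cyclooxygenase 1, had values of 18.8, 20.7, 18.8 and 19.2 in controls C1 to C4, and after 10 defeats the lowest value was 9.55 (D7), the median 10.4 and the highest 15.6 (D4). The groups did not overlap; the difference of -0.71 (adjusted p = 0.0186) was -0.26 (adjusted p = 0.334) after median-ratio rescaling and -0.60 (adjusted p = 0.263) with D4 and D5. Hpgds, the prostaglandin D synthase of blood cells, differed by -0.83 (adjusted p = 0.00652), by -0.44 (adjusted p = 0.0776) after that rescaling and by -0.70 (adjusted p = 0.135) with D4 and D5. Ffar1, a receptor for long-chain fatty acids, and Ffar2, one for short-chain fatty acids, differed by -1.90 (adjusted p = 0.000169) and -1.03 (adjusted p = 0.000799), with D4 and D5 by -1.27 (adjusted p = 0.0258) and -0.68 (adjusted p = 0.0884). Ptafr, the receptor for platelet activating factor, differed by -0.78 (adjusted p = 0.000871), or -0.57 (adjusted p = 0.0721) with D4 and D5, and Abca1, the cholesterol exporter, by -1.73 (adjusted p = 0.000164).

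Genes that glucocorticoids and nerve activity control were split. Of 21 glucocorticoid response genes 6 rose and 11 fell (median -0.75), of 18 immediate early genes 2 rose and 9 fell, and of 10 genes of adrenergic signalling 1 rose and 4 fell. Of all genes 16.8% were higher and 41.9% lower, and none of these lists had a share of lower genes far from the latter. In D4 and D5 alone 3, 0 and 1 were higher and none lower, beside 4.14% and 3.4% of all genes. Median-ratio rescaling gave 6 and 8, 4 and 5, and 2 and 4, beside 28.0% and 25.2% of all genes. The share of glucocorticoid genes that were higher with that rescaling was near the share of all genes. Fkbp5, a chaperone that the glucocorticoid receptor induces, had values of 51.5, 30.3, 30.1 and 39.8 in controls C1 to C4, and after 10 defeats the lowest value was 4.14 (D7), the median 7.04 and the highest 18.8 (D4). All 10-defeat libraries lay below the controls, with a difference of -2.02 (adjusted p = 0.0036), or -1.09 (adjusted p = 0.275) with D4 and D5. Tsc22d3, the leucine zipper GILZ induced by the same receptor, differed by -1.27 (adjusted p = 0.00698), or -0.52 (adjusted p = 0.308) with D4 and D5.

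Other targets went the opposite way. Mt2, a metallothionein that glucocorticoids and metals induce, stood at 11.5, 10.6, 25.5 and 19.6 in the 4 controls and ran from 24.6 in D9 over a median of 98.5 to 164 in D5 after 10 defeats. D5 was the highest, D9 lay just below control C3, and the difference was 2.30 (adjusted p = 0.00068), or 3.02 (adjusted p = 0.00224) with D4 and D5. Dusp1, a phosphatase induced by the receptor and by other stimuli, differed by 0.89 (adjusted p = 0.00836), or 0.80 (adjusted p = 0.175) with D4 and D5. Fos, an immediate early factor, differed by 1.33 (adjusted p = 0.0364); its highest value was 14.2 in D4, the call was lost in 7 of 10 fits without 1 library, and the value with D4 and D5 was 1.66 (adjusted p = 0.104). Nr3c1, the receptor itself, differed by -0.56 (adjusted p = 0.0392), by -0.11 (adjusted p = 0.573) after median-ratio rescaling and by -0.14 (adjusted p = 0.749) with D4 and D5. Arrb1, an arrestin that desensitises adrenergic receptors, differed by 1.52 (adjusted p = 0.000344).

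Of 15 genes of the integrated stress response, which answers shortage of amino acids or haem, 9 rose and 2 fell (median 0.83). Median-ratio rescaling gave 10 and 1, and with D4 and D5 1 rose and 1 fell. The shares of all genes were 16.8% higher and 41.9% lower with 6 libraries, and 28.0% and 25.2% with median-ratio rescaling. They were 4.14% and 3.4% with D4 and D5, and the counts of the list were near them there. Asns, asparagine synthetase, had values of 4.17, 6.49, 9.01 and 5.28 in controls C1 to C4, and after 10 defeats the lowest value was 28.4 (D4), the median 53.5 and the highest 91.5 (D7). Every 10-defeat library lay well above the controls; the difference was 2.93 ± 0.27 (adjusted p = 1.29e-05), or 2.41 (adjusted p = 0.00228) with D4 and D5. Mthfd2, of mitochondrial folate metabolism, differed by 1.00 (adjusted p = 0.000798), or 0.60 (adjusted p = 0.0751) with D4 and D5.

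After the undisturbed week few genes differed from the 10-defeat group: 38 were higher (0.272%) and 41 lower (0.294%), together 0.567% of those tested. This count was unstable, from 2 to 2316 when 1 library was left out, with 2316 without D4, 2 without D7 and without D3, and 4 without the steep libraries. Asns was at 11.5, 11.9, 19.5 and 10.8 in D1, D2, D3 and D8, lower than after 10 defeats by a log2 difference of -1.93 ± 0.27 (adjusted p = 0.0112). Ccne1 was at 24.5, 53.3, 29.1 and 27.6 in D1, D2, D3 and D8, with a difference of -1.28 ± 0.28 (adjusted p = 0.0489), and Tfr2 at 4.78, 6.95, 6.46 and 4.84 in D1, D2, D3 and D8, with -1.13 ± 0.19 (adjusted p = 0.0244). Eosinophil genes were higher after the rest in 4 of 9 members, among them Ear1 at 45.6, 99.4, 38.2 and 29.0 in D1, D2, D3 and D8 (3.02 ± 0.37 (adjusted p = 0.00589)) and Epx, eosinophil peroxidase, at 3.89, 8.86, 6.37 and 3.50 in D1, D2, D3 and D8 (1.52 ± 0.24 (adjusted p = 0.0221)). For Gata1 the values were 23.8, 35.7, 43.0 and 29.0 in D1, D2, D3 and D8 and the difference -1.10 ± 0.30 (adjusted p = 0.0944), and for Prtn3 -0.27 ± 0.61 (adjusted p = 0.793). The median of rested minus 10 defeats was -0.97 for haem synthesis, -0.81 for S phase, 1.01 for secondary granules, 0.85 for B cells and 0.15 for all genes. Of these lists 1 haem synthesis gene and 1 S phase gene were called lower, 1 secondary granule gene higher, and no B cell gene.

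Set beside the same controls, which both comparisons share, haem synthesis had a median of 2.64 after 10 defeats and 1.82 after the rest, S phase 1.52 and 0.72, secondary granules 2.07 and 3.15, and B cell genes -1.98 and -0.95. In the 2 libraries after 4 defeats the medians against control were 0.75 for haem synthesis, 0.85 for S phase, 2.002 for secondary granules, and -1.17 for globin. These 2 libraries were unlike each other. The list means of D13 and D14 lay 0.23 and 1.11 from the control mean for haem synthesis and 3.03 and 1.36 for secondary granules. For globin they lay -1.86 and -0.17 from it, and for S phase 0.95 and 0.76.

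The effect of 10 defeats was also compared between spleen and marrow. Of 14513 genes tested in both tissues the 10-defeat effect differed between spleen and marrow in 6249 (43.1%), being more positive in spleen in 2330 (16.1%) and more negative in 3919 (27.0%); without the steep spleen libraries 3482 differed (24.0%), 1656 more positive in spleen (11.4%) and 1826 more negative (12.6%). In all 15 haem synthesis genes and 22 of 23 red cell membrane genes the effect was more positive in spleen, and the marrow medians were -0.96 and -1.08. The same held for 9 of 12 erythroid factors and 19 of 24 S phase genes, with none the other way in these 4 lists. Without the steep libraries the counts were 14, 21, 9 and 23, again with none the other way. Gata1 differed by 3.11 in spleen and -1.02 in marrow, and the difference between the tissues was 4.13 ± 0.45 (adjusted p = 1.15e-07). Aqp1 had -1.72 in marrow and a difference between tissues of 5.26 ± 0.56 (adjusted p = 9.82e-08). Epor, Ccne1 and Sphk1 had -1.49, -0.75 and -1.45 in marrow, with differences of 4.54 ± 0.53 (adjusted p = 2.81e-07), 3.31 ± 0.35 (adjusted p = 9.82e-08) and 4.76 ± 0.48 (adjusted p = 7e-08).

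For granule genes the marrow median was 0.94 for primary and 0.99 for secondary granules, and the effect was more positive in spleen in 7 of 15 and 7 of 16, and more negative in 3 and 2. Without the steep libraries 5 primary granule genes were more positive in spleen and 2 more negative, but 1 and 2 secondary granule genes. Mpo had 0.75 and Camp 1.41 in marrow, and the differences between tissues were 3.44 ± 0.51 (adjusted p = 7.77e-06) and 4.39 ± 1.20 (adjusted p = 0.00445); for Camp it was 1.45 (adjusted p = 0.275) without the steep libraries. B cell genes had a marrow median of -2.76, with 21 of 22 lower there against 10.8% of all genes, and the effect was less negative in spleen in 5 of 22 and more negative in 1 (8 and 0 without the steep libraries). T cell genes, with a marrow median of -0.90, were more negative in spleen in 9 of 23 and more positive in none, and without the steep libraries in 1 and none.

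For the mitochondrial genome the effect was more negative in spleen in 12 of 13 genes (11 without the steep libraries), with a marrow median of 0.47, and mt-Nd6 had 0.70 in marrow and a difference of -3.79 ± 0.55 (adjusted p = 5.73e-06). Among lipid mediator genes Lta4h had 1.01 and Ffar2 1.02 in marrow, and the differences between tissues were -1.06 ± 0.28 (adjusted p = 0.00326) and -2.05 ± 0.29 (adjusted p = 3.47e-06). Alox5ap and Il1b had 1.54 and 1.72 in marrow, with differences between tissues of -0.76 ± 0.41 (adjusted p = 0.128) and -0.08 ± 0.66 (adjusted p = 0.933); for Alox5ap it was -1.42 (adjusted p = 0.0106) without the steep libraries. Fos had 3.44 in marrow and a difference of -2.11 ± 0.74 (adjusted p = 0.0226), or -1.78 (adjusted p = 0.119) without the steep libraries.

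**Figure D5:**
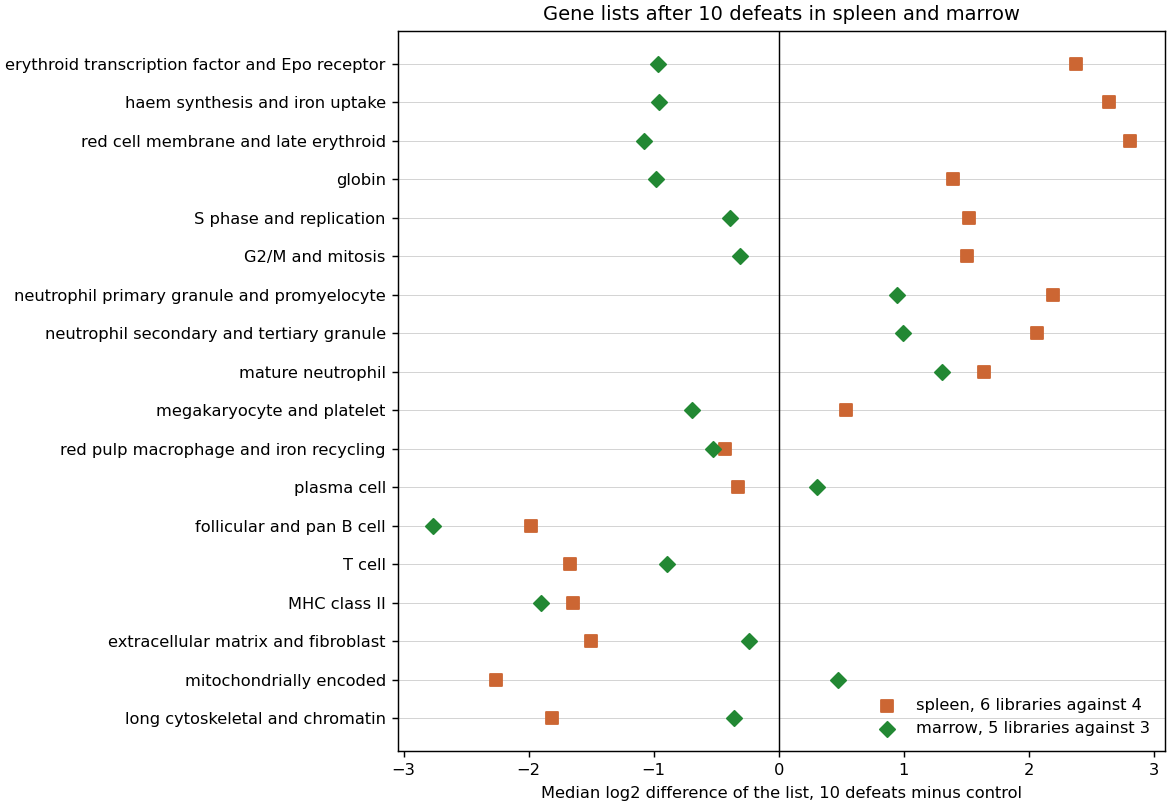
Median log2 difference (x axis, 10 defeats minus control) of 18 gene lists (y axis) in spleen (squares, 6 libraries against 4) and femur marrow (diamonds, 5 against 3). The 4 red cell lists lie at 1.40 or more in spleen and at -0.96 or less in marrow, the 3 neutrophil lists lie above 0 in both, and the mitochondrially encoded list lies at -2.26 in spleen and 0.47 in marrow.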

How the data were processed

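RNA of whole spleen and of flushed femur marrow was isolated with the NucleoSpin RNA Plus kit and made into TruSeq Stranded mRNA libraries, per the labels' protocols. The submitters' processing notes name kallisto 0.46.1 and sleuth without their roles, and the build GRCm38. The authors deposited 1 normalized signal value per gene and library, neither counts nor a named unit; no source used here gives the scaling, and no batch is labelled. Depth was estimated from 9751 single-transcript genes over 600 bp with an assumed fragment of 200 bp; 62.1% to 73.4% of low values lay within 0.1 of a whole read, so no count test was run, and the precision of low values is known only roughly.

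Tests used limma 3.58.1 (R 4.3.3, trend and robust options) on log2(value + 1) of the 18 spleen libraries in 5 groups. A gene was tested if 2 or more libraries reached a value of 1. All differences are on this log2 scale, which understates changes of low genes, ± is the standard error, and adjusted p is that of limma by Benjamini and Hochberg, with a threshold of 0.05. The tissue difference was an interaction in all 37 libraries. Gene positions and lengths came from GENCODE M21, which held 35629 of 35885 identifiers. Same-numbered libraries of both tissues deviated with correlations of -0.20 to 0.35, so the number was not used to pair them. The steps were tested on simulated data.

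Named were the 15 separated genes with the largest rises and falls, those still called after removal of the length trend, up to 4 members of each list by p, and a fixed set of genes; some of them are not reported here. The members, the gene lists and this set were chosen with earlier results of these data known. Alternatives covered 4 rescalings, filters, a pseudocount of 0.1, removal of length and GC trends, library weights, and leaving out libraries.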

Additional observations from a re-analysis of the deposited data

Results flagged for a closer look

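In groups of 4 to 10 libraries the highest or lowest library was compared with its neighbour (Dixon's test), over 210 groups; chance alone marks about 1 in 20. Of the 16 libraries marked, 11 were control C3 as the highest control: it held a haemoglobin share of 23.1% against 10.6% to 12.5% in the other controls, and values of 12.9 for Tal1, 30.6 for Klf1, 29.7 for Cpox, 98.0 for Aqp1, 35.7 for Hemgn, 262 for Car2, 2.72 for Elane, 27.4 for Ngp, 116 for Marco and 45.2 for Mgst3. Among the 10-defeat libraries D4 was the lowest for Epor (30.7) and Rhag (38.5) and the highest for Ffar2 (13.4), and D6 the lowest for Alox15 (0.137). Control C1 was the lowest for Ptafr (3.74).

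The effect of 10 defeats differed between spleen and marrow by the interaction term for 11 of the genes named in the tissue comparison. On the log2 scale spleen minus marrow was 4.13 for Gata1, 4.54 for Epor, 5.26 for Aqp1, 3.31 for Ccne1, 3.44 for Mpo, 4.39 for Camp, 4.76 for Sphk1, -1.06 for Lta4h, -2.05 for Ffar2, -3.79 for mt-Nd6 and -2.11 for Fos.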

How the results depend on the processing

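Without the 4 steep libraries, an alternative chosen after seeing the data that leaves 2 10-defeat libraries, 578 genes were higher and 474 lower, 4 differed between the rested and the 10-defeat group, and 3482 differed between tissues. Median-ratio rescaling gave 3900 higher, 3517 lower and 36 rested against 10 defeats; equal column totals 816 higher and 5 rested against 10 defeats; quantile normalization 3764 lower and 47 rested. For the rested comparison, 22 genes were called with no filter, 5 with a pseudocount of 0.1, 126 after removal of length and GC trends, 8362 with library weights, which were lowest for D4 among the 10-defeat libraries, and 25 with equal totals without globin genes, the last 3 added after seeing the data. Leaving out 1 library in turn gave 1869 to 2723 genes higher, 4714 to 6305 lower, 2 to 2316 rested against 10 defeats, 5277 to 7447 between tissues, and slope differences of -0.149 to -0.113. With the shared library number as a replicate block 6317 genes differed between tissues, beside 6249. The planned fit without every library outside the control range of slopes could not be run, since only D4 remained. None of the 93 called genes changed sign under median-ratio rescaling or with D4 and D5 alone, but the balance of higher and lower calls turned for all genes and for the plasma cell, red pulp macrophage and prostanoid lists with median-ratio rescaling, for the platelet, E2F, leukotriene and ribosomal protein lists with equal column totals, for the prostanoid list with quantile normalization, and for all genes and the glucocorticoid, adrenergic and phospholipase A2 lists with D4 and D5 alone. Of the 100 genes named from the fit of 10 defeats against control, 93 were called, 39 of them not with D4 and D5 alone, and 8 changed their call when 1 library was left out (Alox5, Alox5ap, Fos, Hbb-bs, Hmox1, Ltc4s, Marco and Nr3c1). Equal column totals also ended the calls of Acsl1, Arrb1, Dusp1, E2f1, E2f8, Il1b, Mthfd2 and Ndufv1. Low values of short genes in shallow libraries are the least precise.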
